A study of Mus musculus with 6 samples.

Results

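The chemokine ligands of the mouse aortic root were followed across 6 single-cell libraries: every gene whose symbol is Ccl, Cxcl, Cx3cl or Xcl with a number and at most 1 letter, and that had at least 1 unique molecular identifier (UMI, the tag that marks 1 captured mRNA) in any library. The rule took 39 of the 18687 genes with a UMI. The libraries came from male mice of 24 weeks, with 3 genotypes and 2 sort fractions each. The first genotype, Klf4-floxed Marfan, carried Fbn1 C1041G/+, the fibrillin-1 allele that models Marfan syndrome, together with floxed Klf4 alleles, and Klf4 deletion had been induced in smooth muscle cells (SMCs). The second, Marfan, carried Fbn1 C1041G/+ with wild-type Klf4. The third was the littermate control with neither the Fbn1 allele nor floxed Klf4. The driver of the recombinase was not given in the sources used here. Cells were sorted by a fluorescent SMC lineage label into a lineage-negative (non-SMC) and a lineage-positive (SMC) fraction. Each library pooled 4 animals and each group had 1 library, so animals cannot be told apart, no difference has a replicate check and no p-value is given. All 95% intervals below cover counting error only.

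Chemokines are small secreted or membrane-bound proteins that guide leukocytes along gradients through G protein-coupled receptors. They are grouped by the spacing of their first cysteines into CC, CXC, CX3C and single-cysteine forms. CXC ligands with a glutamate-leucine-arginine (ELR) motif before the first cysteine chiefly draw neutrophils, many CC ligands draw monocytes, and a homeostatic set, such as Cxcl12, Ccl19 and Ccl21a, places cells in tissue without inflammation. In the aorta, chemokines from the vessel wall and from resident macrophages are known to take part in the recruitment of monocytes.

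The signatures that sort the family can be read in the genes' own coding sequence. By the spacing of cysteine codons in GENCODE transcripts, 24 of the 39 ligands were CC, 13 were CXC, 1 was CX3C (Cx3cl1) and 1 had a single cysteine (Xcl1). Of the CXC genes, 5 (Cxcl1, Cxcl2, Cxcl3, Cxcl5 and Cxcl15) had the ELR codons. The following stretches show 1 member of each form, with the codons of the first cysteines, and for Cxcl1 also those of ELR, in capitals.
Ccl2, CC: gccccactcaccTGCTGCtactca
Cxcl1, CXC with ELR: aatGAGCTGCGCTGTcagTGCctgcag
Cxcl10, CXC without ELR: aggacggtccgcTGCaacTGCatccat
Cx3cl1, CX3C: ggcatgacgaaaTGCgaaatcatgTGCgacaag
Xcl1, single cysteine: gaagagagtagcTGTgtgaacttacaaacc
The genes lie in clusters in mm10, with 12 of the 39 on chromosome 11, 11 on chromosome 5, 6 on chromosome 4 and 4 on chromosome 8. The CC genes Ccl2 (chr11:82035571-82037453), Ccl7, Ccl11, Ccl12 and Ccl8 (chr11:82115185-82116799) follow each other on the plus strand. The ELR genes Cxcl5, Cxcl3, Cxcl15, Cxcl1 and Cxcl2 (chr5:90903871-90905938) do the same on chromosome 5.

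After filters on UMIs, genes, mitochondrial share and doublets, 4347 to 7035 cells were kept in the lineage-negative libraries and 5196 to 10929 in the lineage-positive ones. The median cell had between 9881 and 12858 UMIs in 5 libraries and 2143 in the Marfan lineage-positive library, where 39.0% of the deposited barcodes had under 1000 UMIs. Between 9 and 60 barcodes were shared by each pair of libraries. The tdTomato transcript of the sort label was at 2.55, 5.03 and 5.36 CPM (a gene's UMIs as a share of all UMIs of the cells kept in the library, times 1000000) in the Klf4-floxed Marfan, Marfan and control lineage-negative libraries. It was at 227, 414 and 340.1 CPM in the lineage-positive libraries of the same genotypes. The SMC marker Myh11, with 37.4, 53.4 and 47.3 CPM in the lineage-negative and 2022, 2095 and 2589 CPM in the lineage-positive libraries, went the same way. Klf4 stood at 120.3 CPM in the library labelled Klf4-floxed Marfan, lineage-positive, against 46.6 and 30.6 CPM in the Marfan and control libraries of that fraction. A 3' tag can lie outside the deleted part, so this level checks nothing about the deletion. Clustering without chemokine ligands and receptors gave 24 clusters, described by number and leading genes and named only from fixed markers.

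The ligands came mostly from the lineage-negative side of the sort. Together they made up 3322, 6378 and 3287 CPM in the Klf4-floxed Marfan, Marfan and control lineage-negative libraries. In the lineage-positive libraries of the same genotypes the sum was 274, 351 and 232 CPM. Since each mRNA gives 1 tag at its 3' end, CPM is not divided by gene length. In libraries of pooled cells a lower sum can mean fewer cells of a type or less RNA per cell, which cannot be told apart in the library sum. A gene counted as measured in a comparison when the higher library had at least 1 CPM, and as higher or lower when the libraries were at least 2-fold apart. In the lineage-negative over the lineage-positive library, 26 of 27 measured ligands were higher in Klf4-floxed Marfan (24.7% of all genes measured), 28 of 29 in Marfan (24.5% of all genes) and 26 of 27 in control (26.5% of all genes). The remaining 1 ligand was lower (6.36%, 6.82% and 6.69% of all genes) and was the same in all 3 genotypes. Ccl27a, a ligand of CCR10 best known from skin, had 18.7, 16.2 and 19.5 CPM in the lineage-negative and 48.6, 42.2 and 45.7 CPM in the lineage-positive libraries of Klf4-floxed Marfan, Marfan and control. Its log2 ratio was -1.37 in Klf4-floxed Marfan, -1.38 in Marfan and -1.23 in control. It was spread evenly over the smooth muscle clusters, from 35.3 to 69.7 CPM. Ccl27a overlaps Il11ra1 on the opposite strand and has a near-identical copy, Ccl27b, so its reads are uncertain.

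Of the 39 ligands, 28 had at least 10 CPM in a library or at least 50 CPM in a cluster of 50 or more cells and are described one by one. The other 11, which are Ccl20, Xcl1, Ccl21d, Ccl21b, Ccl27b, Cxcl15, Ccl26, Cxcl17, Ccl25, Ccl1 and Ccl28, stayed at or under 3.48 CPM in each library. That highest value was Ccl25 in the Klf4-floxed Marfan lineage-negative library. Ccl1 kept no UMI once cells were filtered.

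**Figure D1:**
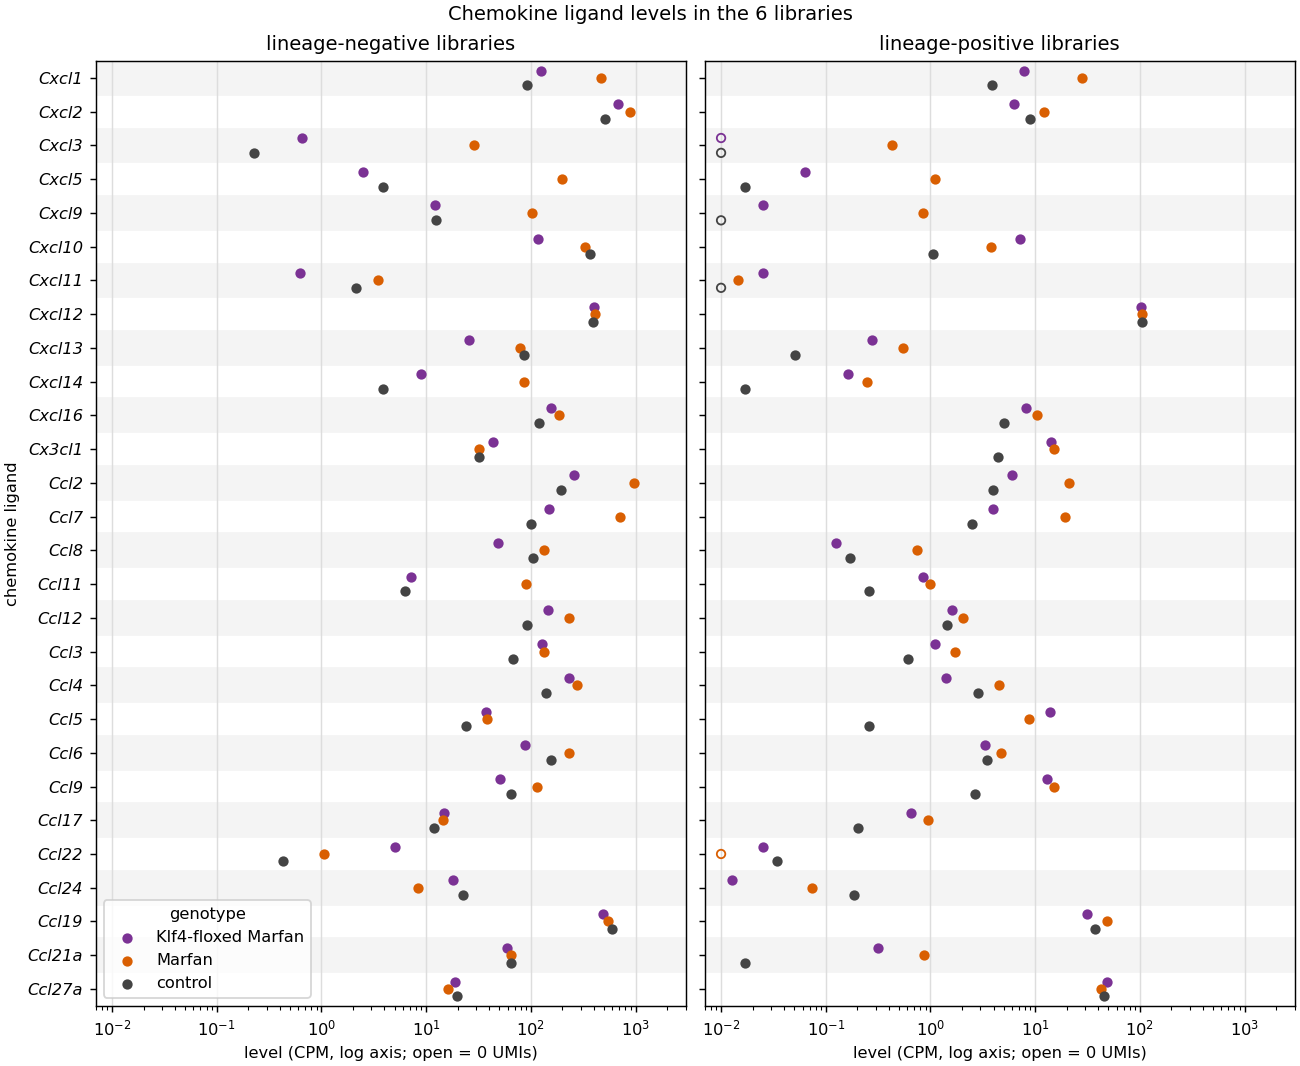
Level of each of the 28 described chemokine ligands in each library, in CPM on a log axis, with lineage-negative libraries in 1 panel and lineage-positive libraries in the other; open symbols mark 0 UMIs. Cxcl2, Ccl2 and Ccl7 reach 876, 968 and 708 CPM in the Marfan lineage-negative library, while Cxcl12 lies between 388 and 409.5 CPM in the lineage-negative libraries and between 102 and 106 CPM in the lineage-positive ones.

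Within the lineage-negative fraction, a few clusters gave most of the ligand mRNA. Cluster 11, macrophage-or-monocyte-like and led by Folr2, F13a1 and Lyve1, held 345, 326 and 233 cells in Klf4-floxed Marfan, Marfan and control. Its ligands summed to 16459, 18280 and 15864 CPM of its own UMIs, and it held 23.2%, 11.3% and 28.1% of all ligand UMIs of those libraries. Cluster 10, unnamed, with macrophage markers and led by Rgs1, Cd72 and Ms4a7, had 458, 676 and 142 cells and ligand sums of 14706, 12419 and 13867 CPM. These sums per cluster were close between genotypes. As a share of the cells kept in each library, cluster 11 was close as well, at 5.799%, 4.634% and 5.36%. Cluster 10 was not, at 7.699%, 9.609% and 3.267% in Klf4-floxed Marfan, Marfan and control. Cluster 14, unnamed and led by interferon-stimulated genes such as Ifit3 and Isg15, had 218, 75 and 133 cells and sums of 4946, 16821 and 13509 CPM. Over the 8 clusters of at least 50 cells in all 3 lineage-negative libraries, 19 of the 28 ligands described below had the same highest cluster in each genotype. That cluster was 11 for 7 of them, 10 for 5 and 14 for 3. The 5 of cluster 10 included Ccl22, at only 2.31, 3.11 and 2.53 CPM there in Klf4-floxed Marfan, Marfan and control. In both Marfan genotypes Ccl22 was highest in cluster 13, which was not among the 8 because control had 38 of its cells.

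A pair of clusters was found almost entirely in the Marfan lineage-negative library. Cluster 16, unnamed and led by Il11, Il6 and Csf3, held 0, 244 and 0 cells in the Klf4-floxed Marfan, Marfan and control lineage-negative libraries. With 1 library per group, such a cluster may belong to the library and not to a cell type of the genotype. It is called the Il11-led cluster here. Its highest-scoring marker list was modulated SMC, which summed to 37865 CPM over its 250 cells of all libraries. Timp1, a member of that list, was alone at 18673 CPM in the cells of the Marfan lineage-negative library. Over the 250 cells the SMC list summed to 725 CPM and the fibroblast list to 5562 CPM. The cluster got no SMC name because only 2.4% of the 250 cells were lineage-positive. Its ligands summed to 30144 CPM, and it held 36.9% of all ligand UMIs of the Marfan lineage-negative library. Its cells had a median of 21828 UMIs, above the library's 10177, and a part of doublets in it was not tested. Cluster 19, neutrophil-like and led by S100a9 and S100a8, held 0, 201 and 7 cells in those libraries, and its ligands summed to 45779 CPM in Marfan at a median of 2440.5 UMIs per cell. Because these clusters weigh on most comparisons with the Marfan library, values without them are given beside the whole.

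**Figure D2:**
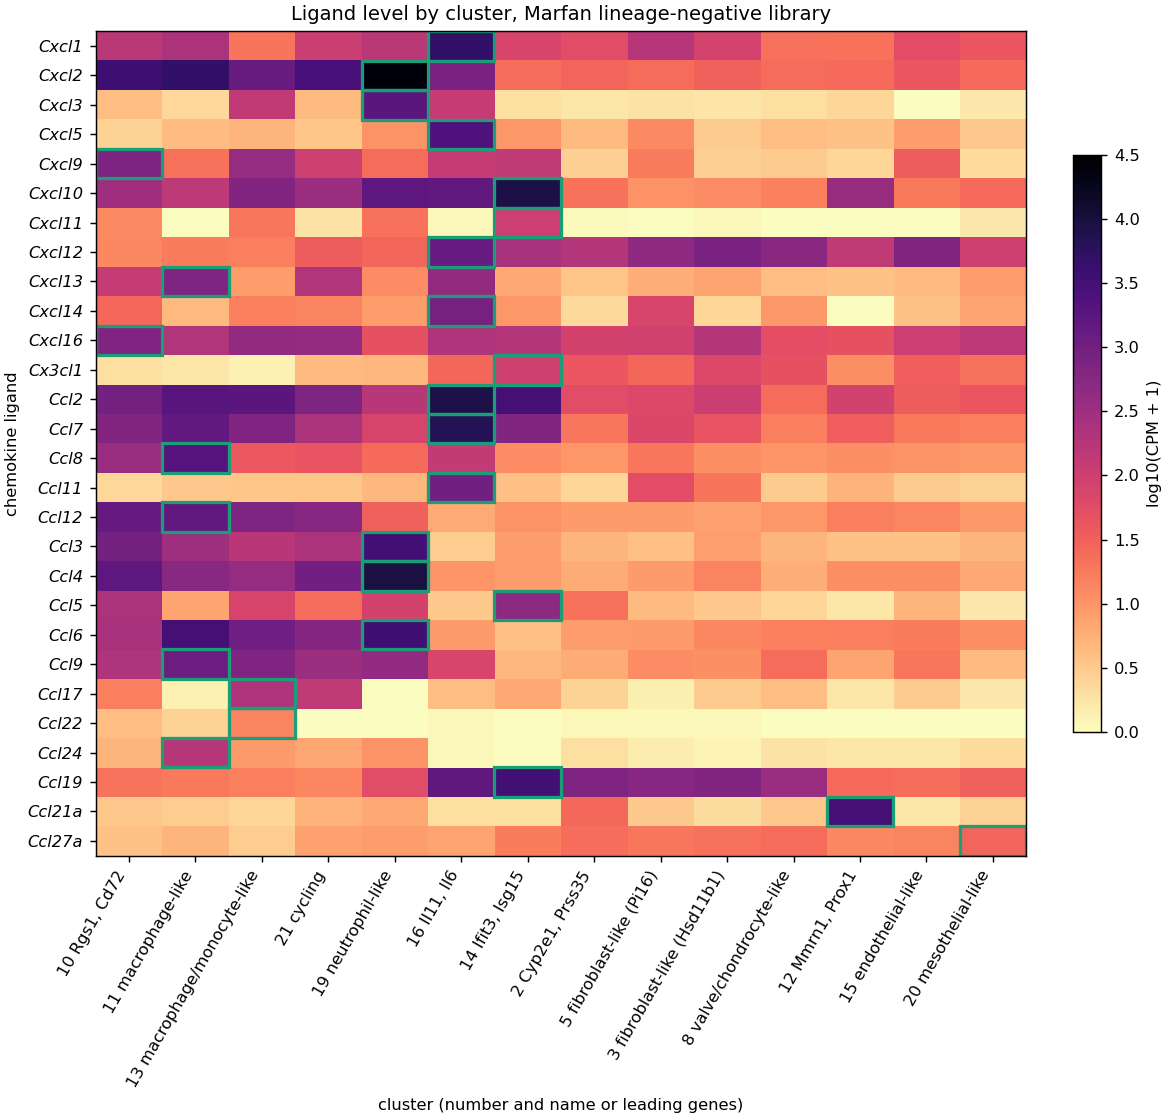
Level of the 28 described ligands (rows) in each cluster of at least 50 cells (columns) of the Marfan lineage-negative library, as log10 of CPM plus 1; the highest cluster of each ligand is boxed. The boxes fall mostly on the Il11-led cluster, the neutrophil-like cluster, the macrophage clusters 10 and 11 and the interferon-gene cluster 14.

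The ELR ligands, which draw neutrophils through CXCR2, were led by Cxcl2. Cxcl2 had 674, 876 and 506 CPM in the Klf4-floxed Marfan, Marfan and control lineage-negative libraries and 6.22, 12.2 and 8.89 CPM in the lineage-positive ones. It came from macrophage clusters in each genotype. In cluster 10 it reached 5466, 3653 and 5189 CPM, and in cluster 11 it reached 5332, 4869 and 4493 CPM. In Marfan, the neutrophil-like cells added 19.8% of the library's Cxcl2 UMIs, at 25466 CPM and in 196 of 201 cells. Fibroblast-like cluster 3 had 18.2, 29.97 and 12.3 CPM of Cxcl2, a level that free RNA in the droplets can give. The part of free RNA in such low levels was not tested.

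Cxcl1, the mouse counterpart of human GRO ligands, separated the libraries more. Cxcl1 had 125, 466 and 91.9 CPM in the Klf4-floxed Marfan, Marfan and control lineage-negative libraries, and 7.77, 28.0 and 3.90 CPM in the lineage-positive ones. The Marfan library was the highest in both fractions. In the lineage-positive one, 52.5% of its Cxcl1 UMIs lay outside the clusters made up mostly of lineage-positive cells. The Il11-led cluster held 81.0% of the Marfan lineage-negative Cxcl1 UMIs, at 4844 CPM and in 197 of 244 cells. Elsewhere Cxcl1 was spread over macrophages and fibroblasts, with 327, 222 and 387 CPM in cluster 11, 276, 151 and 318 CPM in cluster 10 and 195, 169.8 and 140.1 CPM in fibroblast-like cluster 5. Marfan was the lowest of the genotypes in both macrophage clusters, and control in the fibroblast-like one. Without the Il11-led cluster the log2 ratio of Marfan over control for Cxcl1 was 0.06, against 2.34 (95% interval 2.30 to 2.39) with it.

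Cxcl5, a further CXCR2 ligand, was nearly confined to the same cells: 2.50, 197 and 3.90 CPM in the Klf4-floxed Marfan, Marfan and control lineage-negative libraries, and 0.0632, 1.12 and 0.0171 CPM in the lineage-positive ones. The Il11-led cluster held 97.8% of its Marfan UMIs, at 2464 CPM and in 144 cells. Fibroblast-like cluster 5 had 10.9, 11.5 and 17.3 CPM of it, and held 57.4% of its UMIs in Klf4-floxed Marfan and 81.5% in control. Control was the highest library there. Cxcl3 had 0.649, 28.4 and 0.225 CPM in the lineage-negative libraries, and its lineage-positive counts were 0, 29 and 0 UMIs. The neutrophil-like cluster held 42.7% of its Marfan UMIs (1784 CPM, 84 cells) and the Il11-led cluster 33.2% (121 CPM, 38 cells). Macrophage-or-monocyte-like cluster 13 had 128 CPM of Cxcl3 in Marfan. In Klf4-floxed Marfan that cluster was the highest, at 30.2 CPM and with 66.7% of the UMIs.

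The promoters of Cxcl1 and Cxcl2 are shown because both genes were high in the Il11-led or neutrophil-like cells and carry paired matches to a binding motif of NF-kB, a factor known to activate inflammatory chemokine genes. The letters searched on both strands were GGG, any 2 bases, and TTTCC, and matches are in capitals in the 300 bases from 250 before to 50 after the RefSeq start in GRCm38.p6.
Cxcl1, chr5:90890995-90891294, plus strand: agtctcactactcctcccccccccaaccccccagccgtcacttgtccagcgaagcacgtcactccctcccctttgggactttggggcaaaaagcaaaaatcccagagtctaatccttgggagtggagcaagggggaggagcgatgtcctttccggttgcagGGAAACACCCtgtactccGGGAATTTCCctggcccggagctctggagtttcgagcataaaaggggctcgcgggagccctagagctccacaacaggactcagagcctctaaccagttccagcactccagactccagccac
Cxcl2, chr5:90903649-90903948, plus strand: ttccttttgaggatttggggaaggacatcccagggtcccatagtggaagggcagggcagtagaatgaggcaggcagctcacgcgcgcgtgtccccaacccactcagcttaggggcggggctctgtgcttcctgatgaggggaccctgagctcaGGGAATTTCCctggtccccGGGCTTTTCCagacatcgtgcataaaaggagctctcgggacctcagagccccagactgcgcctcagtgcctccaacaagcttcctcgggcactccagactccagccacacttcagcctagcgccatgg
Matches began at positions -89 and -71 in Cxcl1 and at -97 and -78 in Cxcl2, counted from the start, and Cxcl3 had 1 at -73. Of 34 promoters of 28 ligand genes in the RefSeq set, 5 held a match (Cxcl1, Cxcl2, Cxcl3, Ccl9 and Ccl20), against 1.63% of 32851 mouse promoters. Those 28 genes differ from the 28 ligands described one by one. Ccl2, Ccl7, Cxcl5, Ccl11 and Ccl4 were among the ligands with no promoter there, so they were not searched. A match is a description of the letters in this window.

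Ccl2, the main ligand of CCR2 and a monocyte attractant, was the most abundant ligand of the Marfan lineage-negative library. Ccl2 had 256, 968 and 195 CPM in the Klf4-floxed Marfan, Marfan and control lineage-negative libraries and 6.03, 20.9 and 3.97 CPM in the lineage-positive ones. In Klf4-floxed Marfan and control its highest cluster was macrophage-like cluster 11, with 2684 and 1729.5 CPM, against 1902 CPM in the same cluster of Marfan. In Marfan the highest was the Il11-led cluster, at 8077 CPM in 215 of 244 cells, which held 65.1% of the library's Ccl2. Ccl7, a close relative that also signals through CCR2, had 148, 708 and 100.3 CPM in the lineage-negative and 3.98, 19.4 and 2.51 CPM in the lineage-positive libraries. Its cells were the same, with 6660.5 CPM in the Il11-led cluster (73.4% of its Marfan UMIs) and 1617, 1463 and 1216 CPM in cluster 11. Marfan was the highest library for both genes in both fractions. In its lineage-positive library, though, 66.7% of the Ccl2 and 75.4% of the Ccl7 UMIs lay outside the clusters made up mostly of lineage-positive cells.

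Ccl12, a CCR2 ligand of the mouse, differed less and came from macrophages. Ccl12 had 147, 232 and 91.9 CPM in the Klf4-floxed Marfan, Marfan and control lineage-negative libraries and 1.62, 2.04 and 1.44 CPM in the lineage-positive ones. It reached 1257, 1465 and 788 CPM in cluster 11 and 1133, 1397 and 874 CPM in cluster 10. Both Marfan genotypes were above control in both clusters. Ccl8, which signals through CCR8 in the mouse, had 48.7, 133 and 105 CPM in the lineage-negative and 0.126, 0.748 and 0.171 CPM in the lineage-positive libraries. In cluster 11 it was at 779, 2017 and 1662 CPM, lowest in Klf4-floxed Marfan.

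The eotaxins Ccl11 and Ccl24, which draw eosinophils through CCR3, came from different cells and differed between the genotypes in opposite directions. Ccl11 had 7.11, 90.5 and 6.33 CPM in the Klf4-floxed Marfan, Marfan and control lineage-negative libraries and 0.847, 0.983 and 0.256 CPM in the lineage-positive ones. The Il11-led cluster held 85.5% of the Marfan UMIs, at 992 CPM in 96 cells. Fibroblast-like cluster 5 had 35.3, 53.7 and 25.7 CPM of it. Ccl24 had 17.98, 8.37 and 22.6 CPM in the lineage-negative and 0.0126, 0.0734 and 0.188 CPM in the lineage-positive libraries. It was a gene of macrophage-like cluster 11, with 360.2, 178 and 346 CPM in 213, 173 and 152 cells. Marfan was the lowest library for Ccl24 and the highest for Ccl11.

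Ccl3 and Ccl4, inflammatory ligands that macrophages release, differed more by cluster than by library. Ccl3 had 127, 132 and 67.5 CPM in the Klf4-floxed Marfan, Marfan and control lineage-negative libraries and 1.11, 1.72 and 0.615 CPM in the lineage-positive ones. Ccl4 had 233, 276 and 141 CPM in the lineage-negative and 1.42, 4.49 and 2.84 CPM in the lineage-positive libraries. Control was the lowest for both in the lineage-negative fraction. Within cluster 10, though, Ccl3 was at 1392, 931 and 1348 CPM and Ccl4 at 2666, 1698 and 2778 CPM, with Marfan lowest. The neutrophil-like cells of the Marfan library had 3179 CPM of Ccl3 and 9079 CPM of Ccl4.

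Ccl6 and Ccl9, rodent ligands of CCR1, came mostly from macrophage clusters, and the Marfan library was the highest in each fraction. Ccl6 had 87.8, 232 and 154 CPM in the Klf4-floxed Marfan, Marfan and control lineage-negative libraries and 3.35, 4.71 and 3.44 CPM in the lineage-positive ones. Cluster 11 had 1356, 3073 and 2110.3 CPM of Ccl6. In Marfan the neutrophil-like cluster was higher still, at 3443 CPM in 154 of 201 cells, though it held 10.1% of the library's Ccl6 UMIs, against 52.4% in cluster 11. Ccl9 had 50.4, 115 and 64.7 CPM in the lineage-negative libraries, and 664, 1099 and 803 CPM in cluster 11. In the lineage-positive libraries Ccl9 was at 13.1, 15.1 and 2.65 CPM, with control apart from the Marfan genotypes. Ccl5, a ligand made by T cells and activated macrophages, had 37.5, 37.9 and 24.3 CPM in the lineage-negative and 13.9, 8.70 and 0.256 CPM in the lineage-positive libraries. Few cells carried Ccl5, and its highest cluster differed between the genotypes. In Klf4-floxed Marfan it was macrophage-or-monocyte-like cluster 13, at 658 CPM, where 1 cell held 60.7% of the UMIs. In cluster 14 Ccl5 was in 22, 7 and 21 cells, at 339, 497 and 163 CPM, the highest level of Marfan. In cluster 10 it was in 41, 128 and 22 cells, at 80.6, 229.9 and 303 CPM, the highest level of control. The T-or-NK-cell markers of the lineage-negative side summed to 7.22, 16.4 and 2.95 CPM, and their part in the Ccl5 values was not tested.

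Cxcl9, Cxcl10 and Cxcl11, the interferon-induced ligands of CXCR3, did not move together. Cxcl9 had 12.2, 104 and 12.3 CPM in the Klf4-floxed Marfan, Marfan and control lineage-negative libraries, and its lineage-positive counts were 2, 58 and 0 UMIs. Cluster 10 held the most Cxcl9 UMIs in each genotype, at 91.2, 747 and 218 CPM and in 29, 136 and 14 cells. Marfan stood apart there both in level and in the number of cells. In cluster 13, Cxcl9 was at 315 CPM in Klf4-floxed Marfan, its highest cluster there, and at 391 CPM in Marfan, so the pair was close. In Klf4-floxed Marfan 1 cell held 62.3% of the Cxcl9 UMIs of cluster 13. Cxcl10 had 116, 326 and 368 CPM in the lineage-negative libraries and 7.22, 3.81 and 1.06 CPM in the lineage-positive ones. Its source was cluster 14, where it was at 1085, 8405 and 7972 CPM in 116, 41 and 96 cells. The Klf4-floxed Marfan library was the low one, and Marfan and control were close. The Il11-led cluster held another 35.2% of the Marfan Cxcl10, but 5 cells carried 52.1% of those UMIs. Cxcl11 had 0.618, 3.44 and 2.14 CPM in the lineage-negative libraries and 2, 1 and 0 UMIs in the lineage-positive ones, with 96.9 CPM in cluster 14 of Marfan, from 11 cells. Cxcl10 and Cxcl11 both overlap Art3 on the opposite strand, and since strand use in the counting is not given in the sources used here, reads of the overlap are uncertain.

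The promoters of Cxcl10 and Ccl19 are shown with matches to an interferon-stimulated response element (ISRE) in capitals. They are 2 of the 3 ligands for which cluster 14 was the highest in each lineage-negative library. The letters searched on both strands were GAAA, any 2 bases, and GAAA.
Cxcl10, chr5:92348840-92349139, minus strand: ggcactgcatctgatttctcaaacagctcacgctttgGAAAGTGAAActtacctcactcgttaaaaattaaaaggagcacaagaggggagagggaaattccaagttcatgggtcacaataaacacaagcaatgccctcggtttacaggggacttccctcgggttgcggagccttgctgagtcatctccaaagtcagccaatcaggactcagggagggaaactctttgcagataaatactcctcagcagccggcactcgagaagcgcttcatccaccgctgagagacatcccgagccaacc
Ccl19, chr4:42756316-42756615, minus strand: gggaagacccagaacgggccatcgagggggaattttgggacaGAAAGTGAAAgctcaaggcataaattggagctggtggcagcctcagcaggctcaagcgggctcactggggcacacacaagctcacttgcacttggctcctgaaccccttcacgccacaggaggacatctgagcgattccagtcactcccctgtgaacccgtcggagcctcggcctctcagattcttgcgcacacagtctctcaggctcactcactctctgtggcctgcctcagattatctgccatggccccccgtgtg
The matches began at -213 in Cxcl10 and at -208 in Ccl19, and neither promoter held the NF-kB letters. Of the 34 promoters of the 28 ligand genes searched, 3 held an ISRE match (Cxcl10, Ccl19 and Cxcl14), against 3.44% of all 32851 promoters. Cx3cl1, whose highest cluster was also 14, held none. The matches describe letters and are not shown to be sites.

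The homeostatic ligands Cxcl12, Ccl19 and Ccl21a stayed within 2-fold across genotypes in the lineage-negative fraction. Cxcl12, which signals through CXCR4 and keeps leukocytes and progenitors in place, had 404, 409.5 and 388 CPM in the Klf4-floxed Marfan, Marfan and control lineage-negative libraries and 102, 106 and 105 CPM in the lineage-positive ones. It was the only ligand at 100 CPM or more in each of the 6 libraries. Fibroblast-like cluster 3 had 932, 791 and 681 CPM and the valve-interstitial-or-chondrocyte-like cluster 8 had 832, 525 and 606 CPM. The Il11-led cluster was higher still, at 1281 CPM in 225 cells. Ccl19, a CCR7 ligand that guides dendritic cells and T cells, had 492, 549 and 600.4 CPM in the lineage-negative and 31.6, 48.1 and 37.6 CPM in the lineage-positive libraries. It was highest in cluster 14, at 2562, 3318 and 3614 CPM, and was broad in the fibroblast-like clusters 3 and 5, from 406 to 657 CPM. Cluster 2, unnamed and led by Cyp2e1, held the most Ccl19 UMIs, at 590.2, 691 and 789.6 CPM, and the Il11-led cluster of Marfan had 1549 CPM. Ccl21a, the other CCR7 ligand and a product of lymphatic endothelium, had 58.6, 64.8 and 64.9 CPM in the lineage-negative and 0.316, 0.866 and 0.0171 CPM in the lineage-positive libraries. Cluster 12, unnamed and with the lymphatic genes Mmrn1 and Prox1 among its leaders, held 94.5%, 89.4% and 98.7% of its UMIs, in 52, 52 and 28 cells. Ccl19 and Ccl21a overlap the same transcript on the opposite strand, and Ccl21a has near-identical copies, so both are uncertain to that extent.

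Cxcl13 and Cxcl14 were more variable. Cxcl13, the CXCR5 ligand that draws B cells, had 25.5, 78.5 and 86.8 CPM in the Klf4-floxed Marfan, Marfan and control lineage-negative libraries and 0.278, 0.543 and 0.0513 CPM in the lineage-positive ones. In cluster 11 it was at 174, 718 and 1317 CPM, from only 27, 58 and 44 cells, and 5 cells held 70.4%, 74.5% and 59.4% of those UMIs. The value thus rests on few cells. Cxcl14, a ligand whose receptor is debated, had 8.93, 86.6 and 3.90 CPM in the lineage-negative and 0.164, 0.249 and 0.0171 CPM in the lineage-positive libraries. The Il11-led cluster held 79.8% of its Marfan UMIs, at 885 CPM in 100 cells. In fibroblast-like cluster 5 it was at 36.3, 73.1 and 2.95 CPM in 52, 114 and 7 cells, so that both Marfan genotypes were above control there too.

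Cx3cl1 and Cxcl16 are made as transmembrane proteins that can hold leukocytes on the cell or be shed. Cx3cl1, the CX3CR1 ligand, had 43.9, 31.8 and 31.7 CPM in the Klf4-floxed Marfan, Marfan and control lineage-negative libraries and 14.1, 15.1 and 4.46 CPM in the lineage-positive ones. It was highest in cluster 14, at 84.0, 93.1 and 129 CPM, and stood at 73.5, 64.4 and 25.8 CPM in fibroblast-like cluster 3. Cxcl16, the CXCR6 ligand, had 155, 187 and 119 CPM in the lineage-negative and 8.12, 10.4 and 5.08 CPM in the lineage-positive libraries. Cluster 10 had 617, 692 and 620.4 CPM of it. These macrophage levels of Cxcl16 were close. Ccl17 and Ccl22, CCR4 ligands of dendritic cells, were rare. Ccl17 had 14.9, 14.5 and 11.98 CPM in the lineage-negative and 0.645, 0.939 and 0.205 CPM in the lineage-positive libraries. Ccl22 had 5.09, 1.05 and 0.428 CPM in the lineage-negative libraries and 2, 0 and 2 UMIs in the lineage-positive ones. In Klf4-floxed Marfan 93.6% of the Ccl22 UMIs lay in macrophage-or-monocyte-like cluster 13, where 7 cells had any and 1 cell held 88.3%.

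In Marfan over control, within the lineage-negative fraction, 10 of 29 measured ligands were higher (3.12% of all genes measured) and 1 was lower (1.9% of all genes). Their median log2 ratio was 0.68, against -0.10 for all genes. The higher ligands included the ELR members Cxcl3 (6.98, 95% interval 6.1 to 8.04), Cxcl5 (5.66, 5.44 to 5.88) and Cxcl1, the monocyte attractants Ccl7 (2.82, 2.77 to 2.86), Ccl2 (2.31, 2.28 to 2.35) and Ccl12 (1.34, 1.29 to 1.39). They also included Ccl11 (3.84, 3.67 to 4.02), Cxcl14 (4.47, 4.26 to 4.70), Cxcl9 (3.08, 2.95 to 3.20) and Ccl22 (1.29, 0.56 to 2.09). The lower ligand was Ccl24 (-1.43, -1.58 to -1.29). Cxcl12 (0.08, 0.05 to 0.10), Ccl21a (-0.00, -0.07 to 0.06) and Cx3cl1 (0.01, -0.09 to 0.10) were within 2-fold and near equal. Over the same libraries, Marfan against control, the summed neutrophil markers were at 616 and 145 CPM, macrophage markers at 5193 and 3397 CPM, and modulated SMC markers at 5366 and 1514 CPM, with no marker of those lists at 0. The Il11-led cluster, with modulated SMC markers at 37865 CPM, held 7.80% of all UMIs of the Marfan library. The part of all these markers in the ligand ratios was not tested.

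Much of that difference lay in the Il11-led cluster. Without its cells, 9 ligands were higher (3.09% of all genes) and 1 was lower (1.48%): Ccl2 (0.91), Cxcl1 (0.06) and Cxcl5 (0.25) no longer reached 2-fold, and Ccl3 (1.09) and Ccl4 (1.08) did. The ratios of Ccl7, Ccl11 and Cxcl14 shrank to 1.02, 1.17 and 2.29 and stayed past 2-fold. Without the neutrophil-like cluster as well, 7 ligands were higher (2.72%) and 1 lower (1.49%). Cxcl9 at 3.06 and Ccl12 at 1.45 without the Il11-led cluster had moved by little. Cxcl3 was still at 5.05 without both clusters. Of the clusters that remained, macrophage-or-monocyte-like cluster 13 was the highest for Cxcl3 in Marfan, at 128 CPM. It held 359 cells there, against 38 in control.

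**Figure D3:**
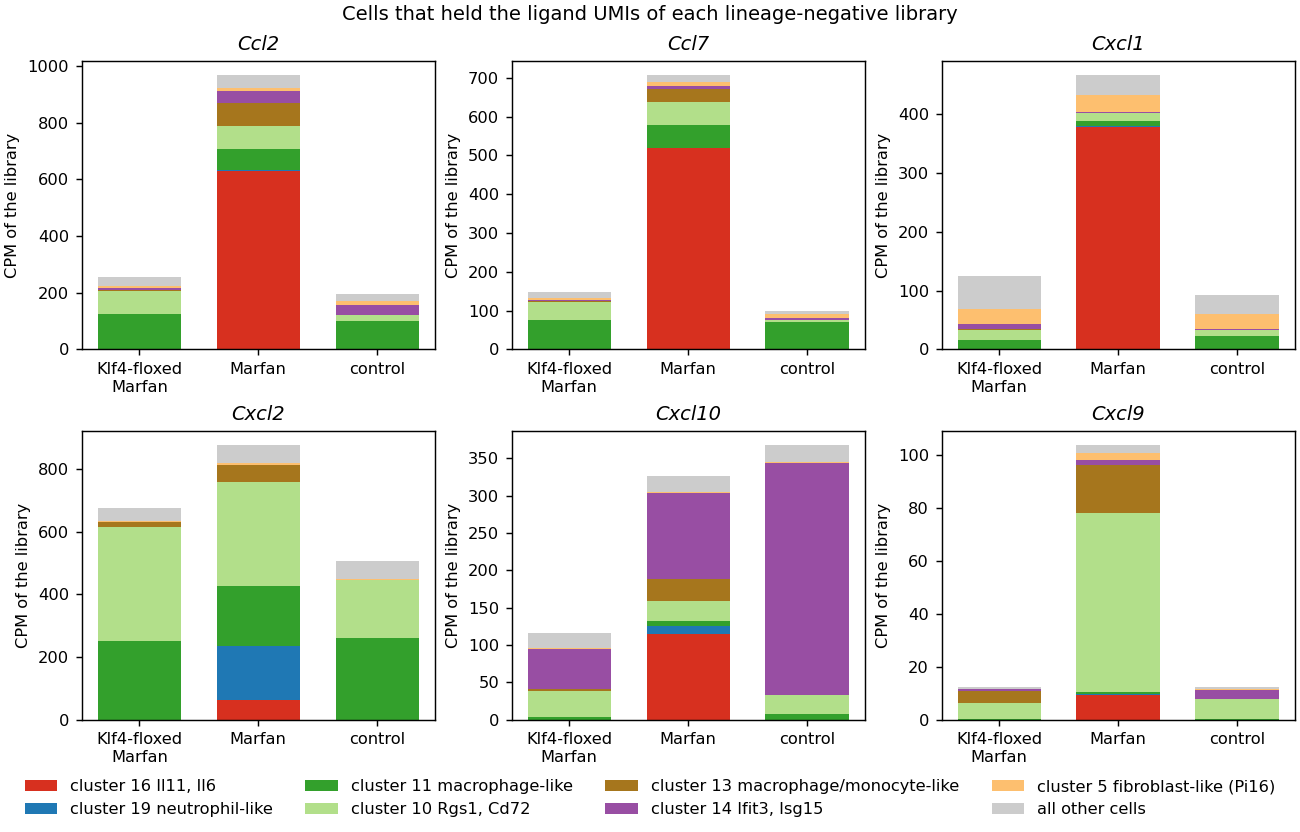
CPM of 6 ligands (Ccl2, Ccl7, Cxcl1, Cxcl2, Cxcl10 and Cxcl9) in each lineage-negative library, stacked by the cluster that the UMIs came from. The Il11-led cluster makes up 65.1% of the Marfan bar of Ccl2, 73.4% of Ccl7 and 81.0% of Cxcl1, and is missing from the bars of the other genotypes.

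In Klf4-floxed Marfan over Marfan, within the lineage-negative fraction, 14 of 29 measured ligands were lower (2.08% of all genes measured) and 2 were higher (0.85% of all genes). The median log2 ratio of the ligands was -0.66, against 0.03 for all genes. Both comparisons share the Marfan library, so a ligand that is high there is high in 1 and low in the other. Among the lower ligands were Cxcl5 (-6.29, 95% interval -6.53 to -6.07), Cxcl3 (-5.45, -5.93 to -5.01), Ccl11 (-3.67, -3.81 to -3.53), Cxcl14 (-3.28, -3.40 to -3.15) and Cxcl9 (-3.09, -3.19 to -2.98). Ccl7 (-2.25, -2.29 to -2.22), Ccl2 (-1.92, -1.94 to -1.89), Cxcl1 (-1.90, -1.94 to -1.87), Cxcl10 (-1.48, -1.52 to -1.45) and Ccl6 (-1.40, -1.44 to -1.36) were lower by less. Cxcl11, Cxcl13, Ccl8 and Ccl9 made up the 14, between -2.47 and -1.19. The higher ligands were Ccl22 (2.28, 1.93 to 2.65), which 1 cell mostly carried, and Ccl24 (1.10, 0.96 to 1.24).

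Without the Il11-led cluster, 8 ligands were lower (1.91% of all genes) and 1 was higher (0.712%), and the counts were 8 (1.46%) and 1 (0.721%) without the neutrophil-like cluster as well. Those that dropped out of the lower ones included Ccl2, at -0.52 without the Il11-led cluster, and Ccl7, at -0.46. Cxcl1 turned round, at 0.38. Ccl8, Ccl6 and Cxcl9 were lower in macrophage clusters that each library had, though Cxcl9 was at -0.31 (-0.50 to -0.13) in cluster 13. In cluster 11, 7 of 26 measured ligands were lower (3.96% of all genes in that cluster) and 2 higher (4.89%). Ccl8 was there at -1.37 (-1.44 to -1.30), Ccl6 at -1.18 (-1.23 to -1.13) and Cxcl13 at -2.04 (-2.18 to -1.91), and Ccl24 was higher at 1.02 (0.87 to 1.17). In cluster 10, 8 of 29 were lower (4.24%) and 1 was higher (3.36%). Cxcl9 was there at -3.03 (-3.19 to -2.89), with 5 cells of Klf4-floxed Marfan holding 79.5% of its UMIs, Ccl8 at -1.45 (-1.58 to -1.32) and Ccl5 at -1.51 (-1.68 to -1.34).

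**Figure D4:**
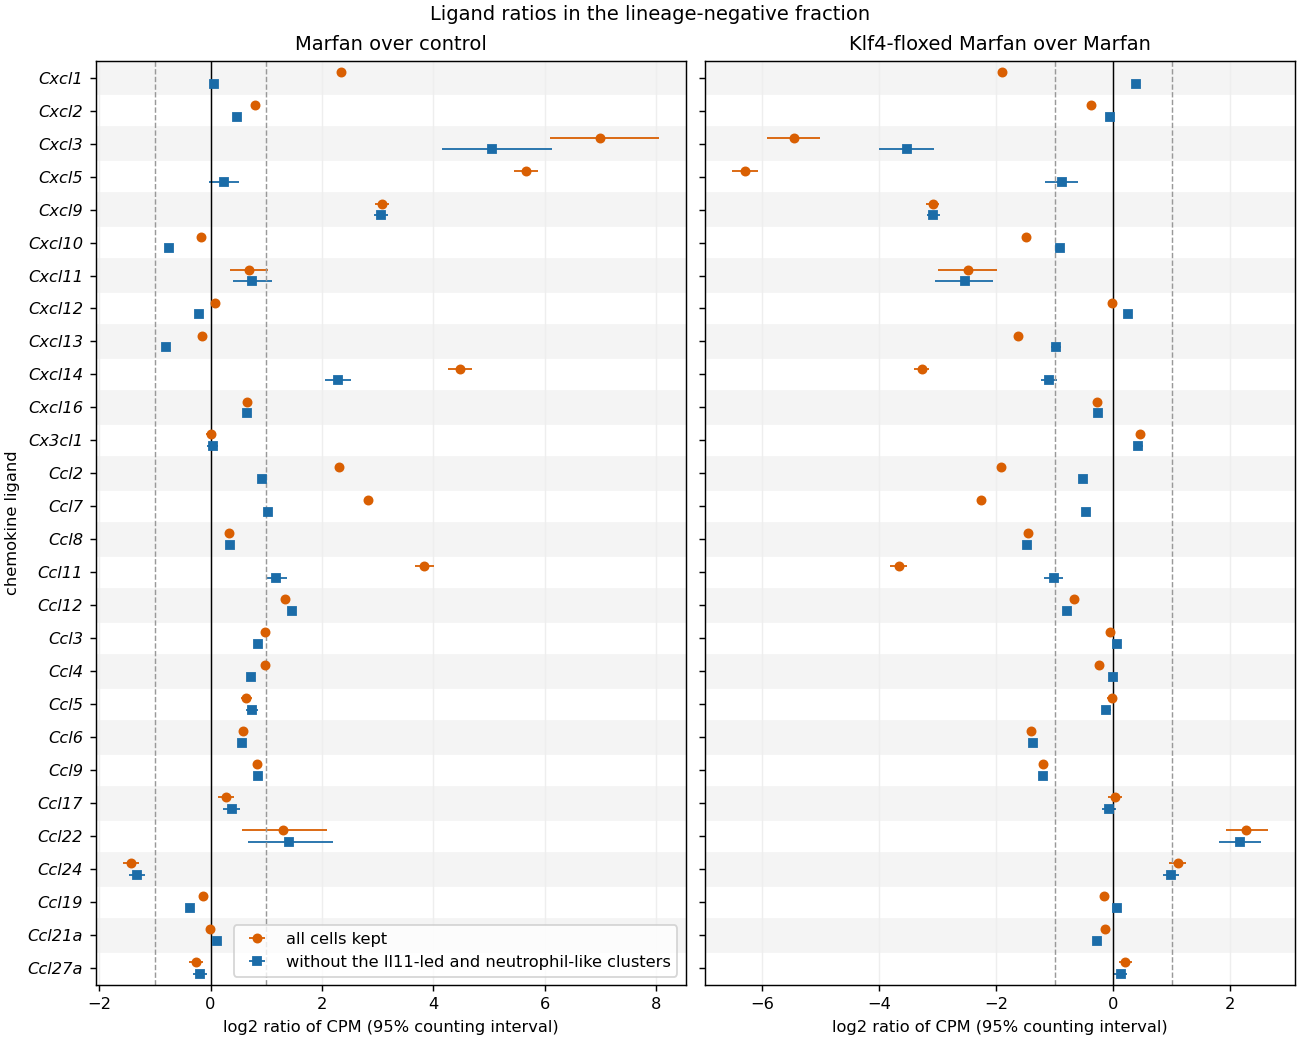
Log2 ratio of each described ligand in the lineage-negative fraction, Marfan over control in 1 panel and Klf4-floxed Marfan over Marfan in the other, with 95% counting intervals, for all cells and without the Il11-led and neutrophil-like clusters. In Marfan over control, Cxcl1 and Cxcl5 lie at 2.34 and 5.66 with all cells and near 0 without those clusters, while Cxcl9 stays near 3; dashed lines mark 2-fold.

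Clusters present in each genotype gave their own ratios. In fibroblast-like cluster 3, 15 of 25 measured ligands were higher in Marfan than in control (3.73% of all genes in that cluster) and 0 were lower (3.41%). Ccl2 led them, with 35.4 CPM in Klf4-floxed Marfan, 104 CPM in Marfan and 11.1 CPM in control. Ccl7 followed, with 21.04 CPM in Klf4-floxed Marfan, 42.9 CPM in Marfan and 6.01 CPM in control. Cluster 8, the lowest for both genes, had 22.8 and 6.45 CPM of Ccl2 in Marfan and control, and 14.8 and 3.56 CPM of Ccl7. The part of free RNA in these Ccl2 and Ccl7 levels was not tested. Cx3cl1, at 64.4 and 25.8 CPM, was in 414 and 200 cells of cluster 3. Ccl3 and Ccl4, known from leukocytes, were at 7.04 and 1.40 CPM and at 13.03 and 3.11 CPM in these fibroblast-like cells, levels at which free RNA from other cells cannot be told apart from the cells' own. Klf4-floxed Marfan over Marfan gave 0 higher and 9 lower of 25 in that cluster (0.88% and 2.02% of all genes). In the Pi16-led fibroblast-like cluster 5, 8 of 24 ligands were higher in Marfan than in control (2.5%) and 0 lower (2.71%), with Cxcl14 at 73.1 and 2.95 CPM and Cxcl9 at 16.5 and 0.246 CPM. The median over clusters for Cxcl9 was 21.4 CPM in Marfan and 0.710 CPM in control. The part of free RNA in this Cxcl9 level was not tested. In macrophage-like cluster 11, 4 of 27 were higher (4.47%) and 2 lower (6.33%), and in cluster 10, 6 of 29 were higher (7.47%) and 4 lower (5.71%). Among the higher ones of cluster 10 were Ccl7 (2.20, 95% interval 2.01 to 2.40), Ccl8 (2.49, 2.20 to 2.79) and Cxcl9 (1.78, 1.62 to 1.94), while Cxcl10 (-1.25, -1.35 to -1.14) and Cxcl1 (-1.07, -1.22 to -0.91) were lower.

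In cluster 14, the interferon-gene cells, Klf4-floxed Marfan had 14 of 26 measured ligands lower than Marfan (7.81% of all genes in that cluster) and 3 higher (8.29%). Cxcl10 was lower at -2.95 (95% interval -3.01 to -2.90), Ccl2 at -4.87 (-5.04 to -4.71) and Ccl7 at -4.95 (-5.34 to -4.58). Ccl2 was at 103 CPM in Klf4-floxed Marfan, 3026 CPM in Marfan and 920.4 CPM in control. In Marfan 30 cells had Ccl2 and 5 of them held 71.6% of it.

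Single cells of the Il11-led cluster tended to carry Ccl2, Ccl7 and Cxcl1 together. Each cell was thinned to 2000 UMIs, which kept 242 of the 244 cells. Ccl2 was then detected in 79.8% of them, against 5.69% of the cells of cluster 2 in the same library, with median depths of 21828 and 11617.5 UMIs over the cells of those clusters. Ccl2 was found in 94.7% of 189 cells with Ccl7, against 26.4% of 53 cells without it. Cxcl1 was found in 80.3% of 193 cells with Ccl2, against 24.5% of 49 cells without it, and Cxcl5 in 54.9% against 8.16%. Cxcl14 went another way, at 26.9% with and 28.6% without Ccl2, and at 19.4% of 175 cells with Ccl19 against 47.8% of 67 cells without it. The median cell of this cluster carried 6 of the ligands, as did that of macrophage-like cluster 11 in each genotype. In the fibroblast-like cluster 3 the median was 2 ligands in Klf4-floxed Marfan, 2 in Marfan and 1 in control. Cells of 1 library are not replicates, so these shares are given with no test.

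The lineage-positive fraction held little chemokine mRNA, and part of it lay in cells that do not belong to its main clusters. Cells outside the 8 clusters made up mostly of lineage-positive cells were 275, 270 and 188 in the Klf4-floxed Marfan, Marfan and control libraries, or 4.56%, 2.47% and 3.62% of the cells. They held 21.8%, 35.5% and 27.5% of the ligand UMIs. For Cxcl2 they held 96.1% of the UMIs in Klf4-floxed Marfan and 92.3% in Marfan, and for Cxcl1 in Marfan 52.5%. In Marfan they also held 66.7% of the Ccl2, 75.4% of the Ccl7 and 81.6% of the Cxcl5 UMIs, but 1.92% of the Cxcl10 UMIs. Of the cells outside in Marfan, 6 were of the Il11-led cluster. Values are therefore also given within those 8 clusters, which include the pericyte-like cluster 17 beside the SMC clusters.

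In Marfan over control, 10 of 18 measured ligands were higher in the lineage-positive fraction (2.93% of all genes measured) and 0 were lower (1.27% of all genes). No library was replicated, so this 0 has no test behind it. The median log2 ratio was 1.26, against -0.07 for all genes. Within the 8 clusters, 9 of 13 were higher (2.95%) and 0 lower (1.35%): Ccl7 (5.81), Ccl5 (4.95), Cxcl10 (4.61), Ccl6, Cxcl1 (4.12), Ccl9 (3.98), Ccl2 (3.63), Cx3cl1 (1.84) and Cxcl16 (1.29). Ccl3, higher in the whole fraction at 1.48, was at -1.63 within them. Most of these were low: Ccl2 and Ccl7 counted 33 and 5 UMIs within those clusters of control. Some rest on single cells of Marfan. Cluster 18, unnamed and led by Iigp1 and Ifit3, had 226 Cxcl10 UMIs, of which 1 cell held 77.4%, and 152 Ccl7 UMIs, of which 1 cell held 48.0%. Of the 190 Ccl5 UMIs of cluster 9 and the 187 of cluster 7, 1 cell held 97.4% and 70.6%. Cxcl1 had 582 UMIs in the pericyte-like cluster 17 of Marfan, 30.5% of the library's, and control had 14 cells in that cluster. In the whole fraction Cxcl12 (0.01, 95% interval -0.04 to 0.06), Ccl19 (0.35, 0.27 to 0.43) and Ccl27a (-0.11, -0.19 to -0.04) had the most UMIs in both libraries and were within 2-fold. The Marfan lineage-positive library is the shallow one, and its summed neutrophil markers were at 18.2 CPM, against 0.615 CPM in control. The part of either in these ratios was not tested.

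Ccl9 and Cx3cl1 differed between the clusters of the lineage-positive fraction. Cluster 7, modulated-SMC-like with Fn1 and Tnfrsf11b among its leading genes, held 1042, 896 and 57 lineage-positive cells in Klf4-floxed Marfan, Marfan and control. Ccl9 was at 49.5, 46.1 and 13.1 CPM there, in 301, 237 and 3 cells. The SMC-like cluster 1 had 0.705, 0.724 and 0.441 CPM. Cluster 7 held 77.9%, 52.7% and 6.45% of the Ccl9 UMIs of these libraries, and its control value rests on 10 UMIs. Smaller clusters reached like levels in Marfan: Ccl9 was at 14.98 and 46.2 CPM in cluster 18 of Klf4-floxed Marfan and Marfan, and at 17.9, 43.5 and 6.08 CPM in the valve-interstitial-or-chondrocyte-like cluster 8. Cx3cl1 was at 30.2, 26.9 and 17.005 CPM in cluster 7 and at 2.11, 3.83 and 2.04 CPM in cluster 1. Its highest levels lay elsewhere, with 72.4 and 115 CPM in cluster 18 of Klf4-floxed Marfan and Marfan and 50.9, 59.3 and 24.3 CPM in cluster 8. Cluster 6, unnamed and led by Tnnt2 and Psd, had 20.9, 20.5 and 6.28 CPM of Cx3cl1 and the highest Cxcl12 of the large SMC clusters, at 236, 197 and 172 CPM. For Cx3cl1 in cluster 6 the Marfan genotypes were close to each other and above control.

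Ccl5 in the modulated-SMC-like cluster 7 was at 59.96, 15.9 and 0 CPM in Klf4-floxed Marfan, Marfan and control, from 26, 8 and 0 cells. In Klf4-floxed Marfan 5 cells held 69.1% of it. In the SMC-like cluster 9 of Marfan, Ccl5 was at 21.8 CPM, of which 1 cell held 97.4%. The pericyte-like cluster 17, with 74 and 92 cells in Klf4-floxed Marfan and Marfan, had 679 and 1059 CPM of Cxcl1 in 27 and 28 cells, and 454 and 562 CPM of Ccl19 in 45 and 52 cells. It held 69.3% and 30.5% of the Cxcl1 UMIs of those libraries. Cluster 18 had 648 and 180.1 CPM of Cxcl10 in 7 and 13 cells. In each of these libraries 1 cell held 50.3% and 77.4% of that Cxcl10.

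In Klf4-floxed Marfan over Marfan, 0 of 18 measured ligands were higher in the lineage-positive fraction (0.138% of all genes) and 5 were lower (0.631%). The lower ones were Cxcl5 (-4.14, 95% interval -5.80 to -2.86), Ccl7 (-2.29, -2.47 to -2.11), Cxcl1 (-1.85, -1.98 to -1.72), Ccl2 (-1.79, -1.95 to -1.64) and Ccl4 (-1.66, -1.99 to -1.35). Within the 8 clusters 3 were lower (0.471%) and 0 higher (0.175%): Ccl7 at -1.14, Cxcl1 at -1.07 and Ccl2 at -1.07. The pericyte-like cluster 17, which is among the 8, had 426 Cxcl1 UMIs in Klf4-floxed Marfan and 582 in Marfan. In cluster 7 itself, Ccl2 was at 0.123 CPM in 2 cells of Klf4-floxed Marfan and at 10.2 CPM in 13 cells of Marfan. Ccl9 (-0.21, -0.33 to -0.08), Cx3cl1 (-0.09, -0.21 to 0.03) and Cxcl12 (-0.06, -0.10 to -0.01) were near equal between these libraries.

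**Figure D5:**
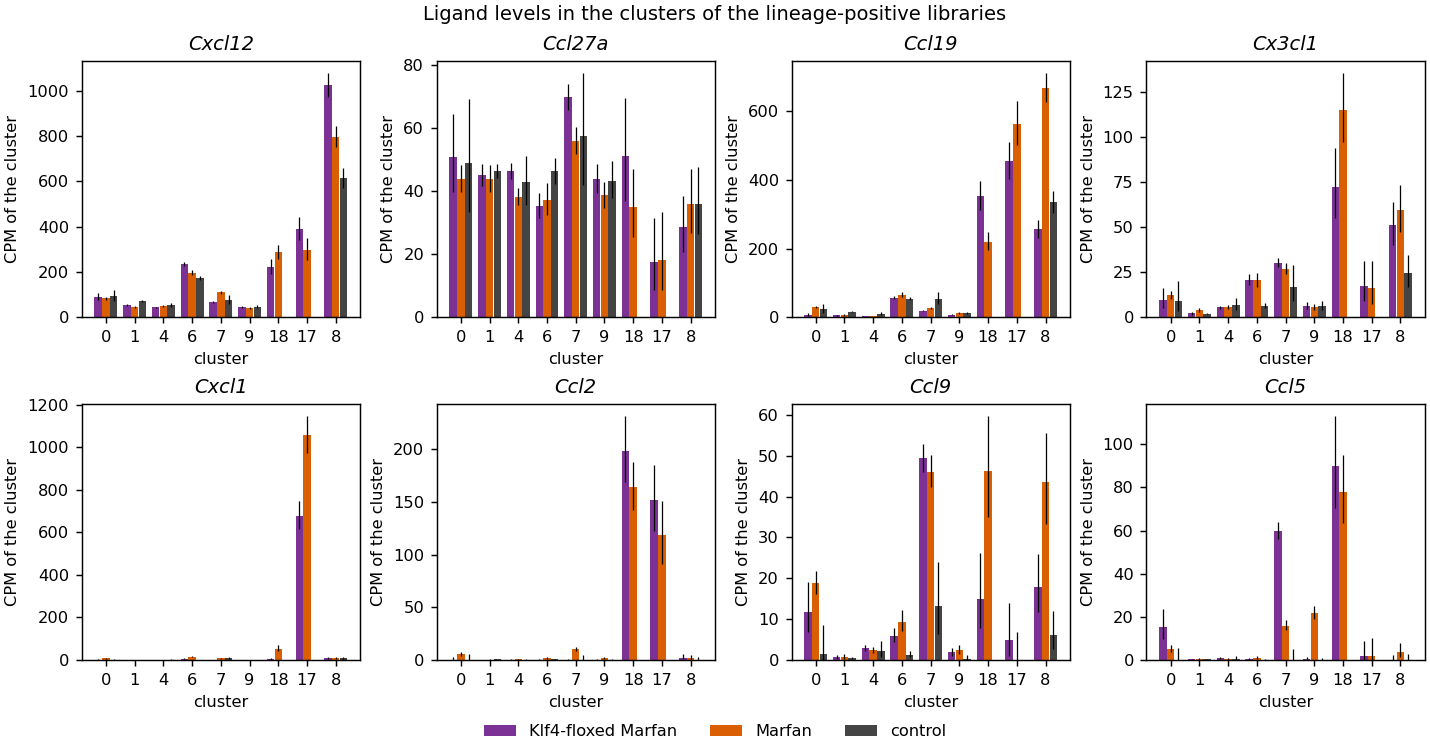
Level of 8 ligands in clusters of the lineage-positive libraries, in CPM with 95% counting intervals, for the 3 genotypes; clusters 17 and 18 have no control bar because control had under 50 cells there. Ccl9 stands at 49.5, 46.1 and 13.1 CPM in the modulated-SMC-like cluster 7 and Cxcl1 at 679 and 1059 CPM in the pericyte-like cluster 17.

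Receptors and other partners were taken from lists chosen with earlier results of these data known. Of 24 chemokine receptors and scavengers, 13 were measured in the lineage-negative fraction. In Marfan over control 5 were higher (3.12% of all genes) and 0 lower (1.9%), with a median log2 ratio of 0.86. Without the Il11-led and neutrophil-like clusters the counts were also 5 and 0, while the single-gene ratios below are over all cells. Cxcr2, the neutrophil receptor of the ELR ligands, was higher in Marfan at 11 CPM, against 1.31 CPM in control, with a log2 ratio of 3.07, and Ccr1 at 27.8 and 7.90 CPM (1.81). In Marfan the neutrophil-like cluster had 792 Cxcr2 UMIs, most of the library's, at 1485 CPM. It had 1068 Ccr1 UMIs, at 2003 CPM. At the other end were the scavengers Ackr3, at 82.8 and 127 CPM (-0.62), and Ackr2, at 3.98 and 3.87 CPM (0.04). In Klf4-floxed Marfan over Marfan 0 were higher (0.85% of all genes) and 5 lower (2.08%), with a median of -0.62, and 3 were lower without both clusters. Cxcr2 was at 0.526 CPM in Klf4-floxed Marfan and 11 CPM in Marfan (-4.39), and Ccr2, the receptor of Ccl2 and Ccl7, at 10.1 and 35.5 CPM (-1.82). Ackr4 was at 11.2 and 11.2 CPM (-0.01) and Ackr3 at 74.4 and 82.8 CPM (-0.15). Cxcr2 moved with the neutrophil markers given above, which were at 43.2, 616 and 145 CPM in Klf4-floxed Marfan, Marfan and control. Ccr2 was a leading gene of macrophage-or-monocyte-like cluster 13. That cluster held 85, 359 and 38 cells in the lineage-negative libraries of the same genotypes, or 1.43%, 5.10% and 0.874% of the cells kept. The part of these cell numbers in the Ccr2 ratio was not tested.

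The other lists are read against the same shares of all genes. Of 19 NF-kB feedback and early inflammatory genes, 5 were higher (3.12%) and 0 lower (1.9%) in Marfan over control. The 5 included Il6, Csf3 and Lif, which were highest in the Il11-led cluster, where Il6 and Csf3 were among the leading genes. Without that cluster 3 were higher and 0 lower. In Klf4-floxed Marfan over Marfan, 0 were higher (0.85%) and 3 lower (2.08%), and 2 were lower without the Il11-led cluster. Of 15 interferon-response genes, 0 were higher and 2 lower in Marfan over control, with 1 lower without the Il11-led cluster, and 0 passed 2-fold in Klf4-floxed Marfan over Marfan. None of 11 immediate early genes reached 2-fold in either comparison. In the lineage-positive fraction, 7 of 16 measured NF-kB genes and 5 of 14 interferon genes were higher in Marfan than in control (2.93% of all genes), with 0 lower in each list (1.27%), beside the 10 ligands. Within the 8 mostly lineage-positive clusters these counts were 5 of 14 and 7 of 14. In Klf4-floxed Marfan over Marfan, 2 of each list were lower (0.631%) and 0 higher (0.138%).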

How the data were processed

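Droplet-based 3' single-cell libraries were aligned to mm10 and counted by the authors, who used Cell Ranger according to the submitters' processing notes; the file headers give version 6.1.2. The deposited values are whole-number counts of UMIs per gene and barcode. From these counts, cells were kept when they had 1000 UMIs or more from 500 genes or more and no more than 10% of UMIs from mitochondria. Doublets were scored in each library with Scrublet through scanpy 1.11.5. Where its automatic threshold marked under 0.5% of cells, which it did in all libraries but Marfan lineage-negative, the highest scores were removed at 0.8% per 1000 cells. Removal thus differed between libraries. Cells were clustered together (2000 variable genes without chemokine ligands or receptors, 30 principal components, 15 neighbours, Leiden resolution 1). Counts were summed per library and cluster and given as CPM with exact Poisson intervals, and log2 ratios with exact conditional binomial intervals. Sums over clusters of under 50 cells are not given. The ratio code was tested on simulated data. The depth of each library limits precision to the counting intervals printed. The ligands and gene lists were chosen with earlier results of these data known, and the described ligands are those past 10 CPM in a library or 50 CPM in a cluster. Promoters are from RefSeq (GRCm38.p6) and coding stretches from GENCODE M21.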

Additional observations from a re-analysis of the deposited data

How the results depend on the processing

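No paired analysis was possible because each group had 1 library, and leaving out a replicate was not possible for the same reason. The settings without the Il11-led and neutrophil-like clusters, and with the mostly lineage-positive clusters only, were chosen after seeing the data. Of the single-ligand values, 1621 moved by less than their interval and 356 moved further. Another 4 changed sign, counted only for ligands past 2-fold in the main setting. Sign changes of ligands under 2-fold were not counted apart. The sign changed for Cxcl1 in the lineage-negative fraction, Klf4-floxed Marfan over Marfan, at 0.38 both without the Il11-led cluster and without both clusters. It changed for Ccl3 in the lineage-positive fraction, Marfan over control, at -1.63 in the mostly lineage-positive clusters, with both libraries under 1 CPM. It also changed for Ccl4 in that fraction, Klf4-floxed Marfan over Marfan, at 0.049 when each cell counted alike. The cause was not tested. Of the counts that answer a comparison, 154 stayed within 1.5 times and 19 did not. In the lineage-negative fraction, Marfan over control gave 18 higher ligands at 1.5-fold and 0 lower when each cell counted alike. Klf4-floxed Marfan over Marfan gave 1 higher and 8 lower without the Il11-led cluster, and without both clusters. In the lineage-positive fraction, Marfan over control gave 20 higher with no floor, and 1 lower when each cell counted alike and 4 with no floor. Klf4-floxed Marfan over Marfan gave there 1 higher when each cell counted alike, 3 with no floor and 2 at 1.5-fold. It gave 0 lower when each cell counted alike, 11 with no floor, 3 at a floor of 5 CPM, 8 at 1.5-fold and 3 in the mostly lineage-positive clusters. Ligands lower in the lineage-negative library of control numbered 2 with no floor. At a Leiden resolution of 0.5, 15 of the 28 described ligands kept their highest cluster in the Marfan lineage-negative library. Low counts in the lineage-positive libraries limit which ligands could be compared.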

Other observations

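Pf4 and Ppbp are CXC chemokines whose symbols the rule does not take. Pf4, known from platelets and resident macrophages, was at 328, 282 and 319 CPM in the Klf4-floxed Marfan, Marfan and control lineage-negative libraries, and was among the leading genes of macrophage-like cluster 11. Ppbp, a platelet chemokine, stayed under 1 CPM in each library, at 0.309, 0.319 and 0.225 CPM in the lineage-negative ones. Of 15 genes for glycosaminoglycan carriers and enzymes that hold or process chemokines, 1 was at least 2-fold higher (3.12% of all genes) and 0 lower (1.9%) in Marfan over control in the lineage-negative fraction, and 0 were either without the Il11-led cluster. In Klf4-floxed Marfan over Marfan 0 were higher (0.85%) and 2 lower (2.08%) there, and 1 was lower without that cluster.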
